A study of Mus musculus with 10 samples.

Results

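The loss of transcripts over the first 2 h in full cytokine was read from 4 of the 10 arrays of the study: both arrays of 32Dcl3 cells held for 2 h in high IL-3 and both taken at 0 h, compared within each of 2 independent experiments. 32Dcl3 is a mouse myeloblast line that needs interleukin-3 (IL-3) to survive and divide, and a single line stood for myeloblasts throughout. In each experiment IL-3 was washed off and actinomycin D (10 µg/ml), which blocks transcription, was added. The culture was then split between high IL-3 (1 ng/ml) and low IL-3 (10 pg/ml). RNA was taken at 0 h, and at 2 h and 4 h in either dose, with 1 Affymetrix mouse 430A 2.0 array for each sample, so that each of the 5 groups held 2 arrays. The methods count time from the addition of IL-3 to cells already in actinomycin D, the titles of the 0 h samples also place them after the drug, and the samples' description places them just before it. Loss in the short stretch between drug and cytokine may or may not be part of the values. The arrays hold 22690 probe sets, of which 11856 had a mean intensity of at least 50 over the 10 arrays and were tested. The dimmest probe set kept had a mean of 50.05, and the brightest of the 10834 left out had 49.98. This mean includes the 0 h arrays, so that a probe set dim at all later times could be tested through its 0 h signal. The probe sets tested stood for 6792 named genes, each counted once by its brightest probe set.

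Actinomycin D stops RNA polymerase, so that transcripts decay without being replaced. Most mRNAs are degraded after their poly(A) tail has been shortened by the CCR4-NOT and PAN2-PAN3 deadenylases, by decapping and digestion from the 5′ end or by the exosome from the 3′ end. Short-lived mRNAs often encode transcription factors, cytokines, cell cycle proteins and inhibitors of signalling, and many carry AU-rich elements (AREs) in their 3′ untranslated region, which proteins such as the ZFP36 family use to recruit deadenylases. Long-lived mRNAs often encode ribosomal, mitochondrial and metabolic proteins.

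The identity of the cells was checked against marker genes before the results were read. Of 13 myeloblast markers, 10 had a mean intensity of at least 50, with Ctsg at 3754, Mpo at 2246 and Prtn3 at 2171, which encode proteins of primary granules, while Elane (19.6), Kit (7.97) and Cd34 (5.83) were near background. Markers of other cell types reached a mean of 50 for 4 of 12 mast cell and basophil genes (Cpa3 at 1243, Gata2 at 861, Mcpt8 at 219.9 and Fcer1a at 130.0), 3 of 12 macrophage genes (Adgre1 at 2969, Cd68 at 296 and Csf1r at 61.3), 2 of 12 lymphoid genes (Ighm at 472 and Thy1 at 69.8) and 4 of 11 erythroid and megakaryocyte genes (Tfrc at 3269.6, Itga2b at 1842, Pf4 at 881 and Gp9 at 84.4). The summed intensity over all 4 arrays ran from 2091 to 3987 for mast cell and basophil markers, from 3158 to 3547 for macrophage markers, from 480.0 to 749.9 for lymphoid markers, and from 5504 to 6667 for erythroid and megakaryocyte markers. Among the markers under 50 were Cd3e, Pax5, C1qa, Cd14, Mcpt4 and Hba-a1, with means below 16. The part of such markers in the results was not tested. The experiments differed in some myeloid genes already at 0 h, for example in Mpo with 3409 in experiment 1 and 509 in experiment 2. In bulk RNA, fewer cells of a type and less RNA per cell cannot be told apart.

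After 2 h in high IL-3, 2685 probe sets (22.6% of those tested) were lower than at 0 h and 413 (3.48%) were higher, at an adjusted p of 0.05 by limma. By gene, 1876 of 6792 (27.6%) had fallen and 207 (3.05%) had risen. The median probe set held 91.4% of its 0 h intensity in experiment 1 and 95% in experiment 2. The 25th percentile was 73.9% in experiment 1 and 75.7% in experiment 2, and the 5th percentile was 39.1% and 35.5%. In both experiments 790 probe sets, of 636 genes, were below 50% of their 0 h signal, 165 were below 25%, 88 were below 20% and 14 were below 10%. All 790 passed the test. Of the 2685 lower probe sets, 2683 were below 100% in both experiments, and their median log2 changes were -0.76 and -0.77. The log2 changes in the 2 experiments had a Pearson correlation of 0.762 over the 11856 probe sets, which are not independent and share an array platform and a joint normalization. Among the lower probe sets alone it was 0.775, and among the higher ones -0.252. Both sets were called from these same changes. The choice itself favours a shared direction and similar medians, and it shapes these 2 correlations. Without the experiment as a block, limma called 192 probe sets lower and 0 higher (1565 in either direction at an unadjusted p under 0.05).

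**Figure D1:**
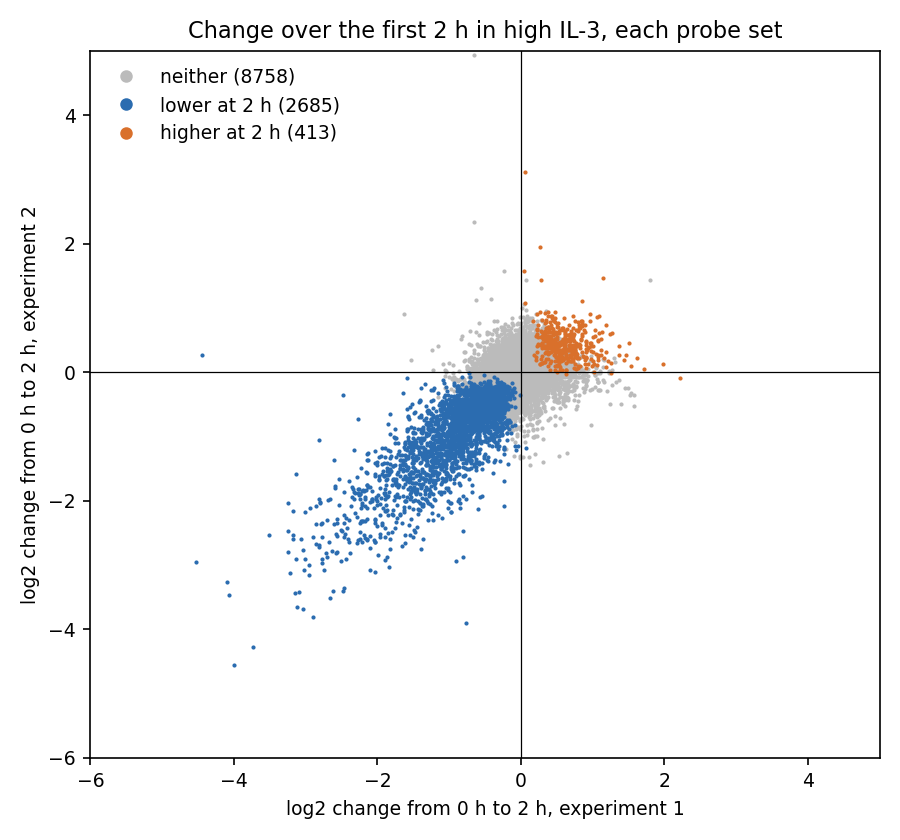
Log2 change from 0 h to 2 h in high IL-3 in experiment 1 (horizontal axis) and experiment 2 (vertical axis) for each of the 11856 probe sets tested, in log2 units of intensity + 16. Blue marks the 2685 probe sets lower and orange the 413 higher at 2 h by limma, and grey the other 8758. The blue points stretch along the diagonal and the orange ones lie mostly close to the origin.

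The balance of falls and rises depended on how the arrays were brought to a common scale. On the deposited scale the median log2 change over all probe sets tested was -0.08, and 86.7% of the calls were falls. After scaling every array to 1 common 75th percentile the median became 0.17, 1642 probe sets were lower and 3582 higher, and the share of falls was 31.4%. It was 41.5% with quantile normalization (1755 lower, 2478 higher) and 30.2% with each array centred on its median (1645 lower, 3795 higher). Scaled to 12 poly-A control probe sets, whose intensity was 0.35 and 0.22 log2 units higher at 2 h than at 0 h in experiments 1 and 2, 5717 were lower and 79 higher (98.6% falls). This last scaling was chosen after the data were seen. Log2 changes of single genes are therefore given relative to the median of -0.08, while percentages and tests use the deposited scale. The error after a percentage is the SD over the 2 experiments (n = 2).

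Myc, the growth-promoting transcription factor, had the largest fall on the scale of the fit, log2(intensity + 16), on which dim probe sets move less. Its intensities in experiments 1 and 2 were 1463 and 1064 at 0 h and 76.5 and 30.2 at 2 h, which left 4.03% ± 1.69 of the 0 h signal (log2 change -4.19, SE 0.19, adjusted p = 3.5e-09 by limma). Both arrays at 2 h were far below both at 0 h. The related factor Mycn had intensities of 2208 and 1609.7 at 0 h and 114 and 154 at 2 h and kept 7.35% ± 3.10 (log2 change -3.60, SE 0.18, adjusted p = 5.5e-09). Among the other members of the MYC and MAX network, Mnt, a repressor that competes with MYC for MAX, kept 21.7% ± 1.39 and Mxi1, a further MAX partner, 62.2% ± 1.25. Dimmer probe sets of both were not called, at 101% and 96.3% for Mnt and 110.2% and 62.7% for Mxi1. In all, 5 of the 9 measured members fell and 0 rose, where 27.6% of all genes fell.

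The probe set with the next largest fall on that scale measured Nfkbia, which encodes the NF-kB inhibitor that NF-kB itself induces. It went from 549 and 694 to 26.5 and 20.5 and kept 3.90% ± 1.33 (log2 change -3.93, SE 0.20, adjusted p = 5.5e-09), and a brighter probe set of the gene kept 13.7% ± 1.29. Dusp2, a phosphatase that inactivates MAP kinases in the nucleus, was at 738 and 477 at 0 h and 28.9 and 28.7 at 2 h and kept 4.97% ± 1.49. Wee1, the kinase that holds CDK1 inactive before mitosis, was at 1034 and 533 at 0 h and 105 and 27.3 at 2 h and kept 7.64% ± 3.56. Nfil3, a bZIP repressor induced by IL-3, was at 741 and 1321 at 0 h and 76.3 and 88.4 at 2 h and kept 8.50% ± 2.55. None of these 4 genes had a 2 h array that reached the lowest 0 h array. Riox1, a histone demethylase and ribosome hydroxylase, kept 9.18% ± 4.74, the Fanconi anemia gene Fancf 7.78% ± 0.720, the sialic acid phosphatase gene Nanp 9.59% ± 1.12, and the gene 1700017B05Rik 7.50% ± 1.99. Their adjusted p lay between 3.1e-08 and 5.4e-08. Signals below 50 on both 2 h arrays, as for this Nfkbia probe set, Dusp2, Fancf and 1700017B05Rik, and further on for probe sets of Gas5, Socs3 and Med26, lay under the mean that a probe set needed to be tested. The mean over the 10 arrays let these probe sets in largely through their 0 h arrays, which favours falls among dim ones. Background was not measured, so their shares left are uncertain, and their order was not resolved.

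Gas5, a long noncoding RNA that hosts small nucleolar RNAs in its introns, differed between its probe sets. A dim one fell from 1001 and 333 to 27.9 and 29.1 (5.76% ± 4.20 left, log2 change -3.66, SE 0.28, adjusted p = 1.3e-07), and another dim one kept 6.42% and 13.5% in experiments 1 and 2. Both bright probe sets of the gene, with means of 3938 and 3329.8, kept 89.0% and 97.3%, and 93.6% and 96.8%, and were not called. Of the 2680 genes with several probe sets tested, 861 had a lower one, 320 were lower by all of them, and 12 had a lower and a higher one.

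**Figure D2:**
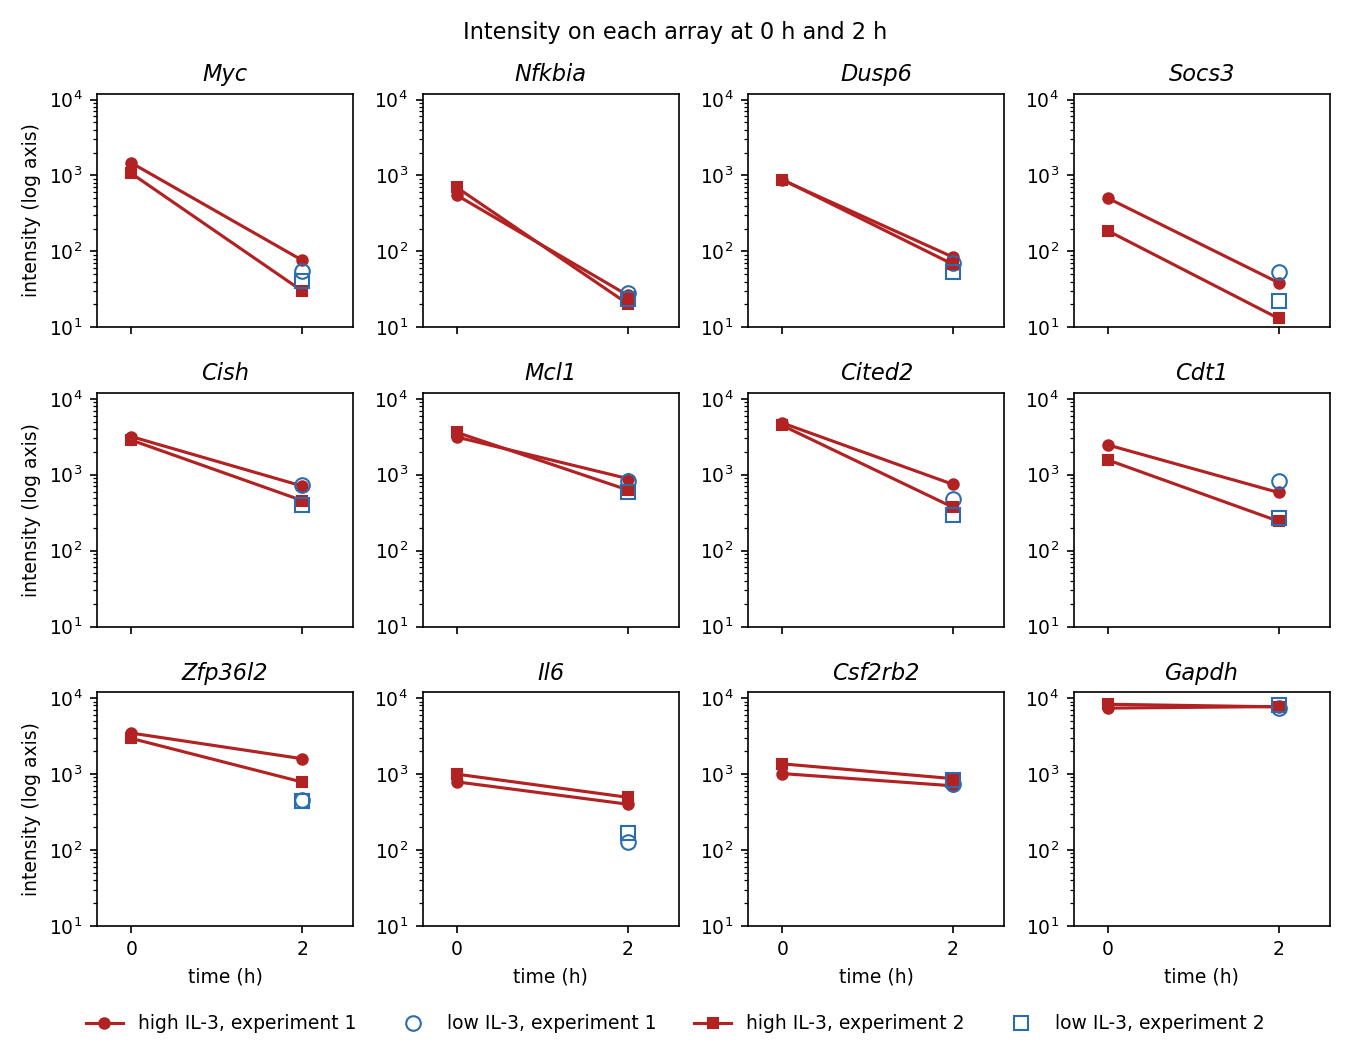
Intensity (log axis) at 0 h and 2 h in high IL-3 (red, joined within an experiment) and at 2 h in low IL-3 (blue, open) for 12 genes, with circles for experiment 1 and squares for experiment 2. Myc, Nfkbia, Dusp6 and Socs3 lost most of their signal in both experiments and at either dose, Il6 and Zfp36l2 lay lower in low than in high IL-3, and Gapdh stayed level.

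Genes of inducible and lineage transcription factors fell widely. Of the 14 measured immediate early genes 10 fell (71.4%, against 27.6% of all genes) and 0 rose. Their median log2 change was -1.01, against -0.12 over all genes. The AP-1 subunit gene Junb had intensities of 361 and 388 at 0 h and 79.0 and 40.6 at 2 h and kept 16.2% ± 8.08, its partner Fos was at 358 and 106 at 0 h and 85.4 and 22.2 at 2 h and kept 22.4% ± 2.08, and Ier5 kept 19.7% ± 10.1. Ier3 was brighter and kept more, 40.0% ± 5.75, with 1536 and 1623 at 0 h and 552 and 715 at 2 h. Of 8 Krüppel-like factors 6 fell, with Klf10, a TGF-beta inducible repressor, at 11% ± 2.09 and Klf9, a target of steroid receptors, at 34.0% ± 3.88. Other Klf9 probe sets ranged from 15.2% and 15.7% to a dim one at 125% and 95.8% that was not called. Of 6 genes listed under the ID, HES and related helix-loop-helix class 4 fell, with a median of -2.23. The 4 included Hexim1 (37.7% and 21.9% left in experiments 1 and 2), which is not a helix-loop-helix gene. The count and median are therefore not of that class alone. Id1 and Id2, which keep other helix-loop-helix factors from binding DNA, kept 13.5% ± 0.347 (log2 change -2.68, SE 0.14, adjusted p = 6.9e-09) and 12.2% ± 1.82, and the clock repressor Bhlhe40 13.3% ± 0.926. These counts moved by at most 3 under any scaling and by at most 1 with any 1 of the 4 arrays left out.

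Of 24 MYB, ETS and myeloid factors 18 fell (75%, against 27.6% of all genes) and 0 rose, with a median log2 change of -1.22. Hhex, a homeobox factor of early hematopoiesis, was at 1651 and 1148 at 0 h and 292 and 138 at 2 h and kept 14.9% ± 3.97. The interferon-induced factor Irf1 kept 13.2% ± 2.55, Gfi1, a repressor needed for neutrophil development, 18.6% ± 6.01, and Cebpb, which drives emergency granulopoiesis, 21.1% ± 4.34. Cebpa, the factor that commits progenitors to the granulocyte line, was at 248 and 821 at 0 h and 83.7 and 208 at 2 h and kept 29.5% ± 5.92, although its 0 h level differed between the experiments. Spi1, which encodes PU.1, kept 56.1% ± 3.38 and the mast cell and progenitor factor Gata2 36.0% ± 7.47. Myb, which sustains immature hematopoietic cells, fell less. Its brightest probe set was at 2748 and 2133 at 0 h and 1836 and 1094 at 2 h and kept 59.0% ± 11 (log2 change -0.68, SE 0.11, adjusted p = 6.9e-05), and the others kept 64.6% ± 28.9 and 68.9% ± 37.1. In both of these most of the loss was in experiment 2, and without the 2 h array of experiment 2 neither passed (adjusted p = 0.28 and 0.82).

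Genes that cytokines such as IL-3 induce through STAT5, and that restrain or carry its signal, were among those lost in full cytokine. Of 12 measured JAK/STAT5 targets 10 fell (83.3%, against 27.6% of all genes) and 0 rose, with a median log2 change of -0.82. Cish, a STAT5-induced inhibitor of cytokine receptors, was at 3177 and 2856 at 0 h and 710.1 and 457 at 2 h and kept 19.2% ± 4.48 (log2 change -2.29, SE 0.15, adjusted p = 3.1e-08). Socs3, an inhibitor of JAK kinases, was at 503 and 187 at 0 h and 38.7 and 13.1 at 2 h and kept 7.35% ± 0.500, and by its brightest probe set 10.3% ± 1.62. Mcl1, an anti-apoptotic BCL2 relative with a short-lived protein, was at 3133 and 3604 at 0 h and 890.4 and 631 at 2 h and kept 23.0% ± 7.72, and each of its 6 probe sets fell. The survival kinase genes Pim3 and Pim1 kept 33.4% ± 10.3 and 55.1% ± 16.8. Of 20 JAK/STAT components 7 fell (35%, against 27.6% of all genes), with Socs6 at 29.5% ± 4.79. On the 75th percentile scale 4 of them fell and 3 rose.

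The MEK/ERK pathway has feedback inhibitors that it induces, and 8 of the 9 measured fell (88.9%, against 27.6% of all genes). Their median log2 change was -1.38. Dusp6, a cytoplasmic phosphatase specific for ERK, was at 871 and 884 at 0 h and 83.9 and 67.5 at 2 h and kept 8.64% ± 1.41 (log2 change -3.21, SE 0.19, adjusted p = 2.4e-08). Dusp1, a phosphatase for p38 and JNK as well, was at 883 and 266 at 0 h and 135 and 33.2 at 2 h and kept 13.9% ± 1.94. Spry2, an inhibitor of RAS signalling, was at 503 and 649 at 0 h and 77.4 and 48.9 at 2 h and kept 11.5% ± 5.56. Of 12 genes of TGF-beta feedback 10 fell, with a median of -1.06. Cited2, a CBP/p300-binding regulator, was at 4803 and 4449 at 0 h and 745 and 372 at 2 h and kept 11.9% ± 5.05 (log2 change -3.01, SE 0.18, adjusted p = 3.1e-08), and by its other probe set 31.2% ± 15.7. The SMAD corepressors Tgif1 and Skil kept 14.5% ± 0.395 and 29.7% ± 5.70. A dim Skil probe set, at 62.9% and 103%, was not called. Of 9 genes of NF-kB feedback 6 fell, Birc3 and Birc2, ubiquitin ligases downstream of TNF receptors, with 33.4% ± 0.390 and 35.1% ± 1.82 left. These 3 counts were 7 to 9, 10 and 5 to 6 under the scalings.

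Of 14 genes of the PI 3-kinase pathway 9 fell (64.3%, against 27.6% of all genes) and 1 rose, with a median log2 change of -0.46. Foxo3, the transcription factor that AKT excludes from the nucleus, was at 576 and 305 at 0 h and 118 and 36.6 at 2 h and kept 16.3% ± 6.00. Pik3r1, the p85 alpha subunit, kept 40.2% ± 17.4, and its other probe set, at 86.7% and 49.0%, was not called. Pik3cd, the p110 delta catalytic subunit, kept 69.4% ± 19.0 by its brightest probe set, which was at 982 and 1584 at 0 h and 813 and 886 at 2 h (log2 change -0.47, SE 0.14, adjusted p = 0.0082). Its other probe sets were at 122% and 113% in experiment 1 and at 64.8% and 53.6% in experiment 2 and were not called. The brightest did not pass on the 75th percentile, quantile and median centred scales (adjusted p = 0.098, 0.086 and 0.088 by limma). On the deposited scale its log2 change of -0.55 became -0.42 without the 0 h and -0.32 without the 2 h array of experiment 2. The count of falls in this list was 5 without either 0 h array or without the 2 h array of experiment 1. It was 2 falls against 3 rises on the 75th percentile and median centred scales and 3 against 2 with quantile normalization.

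The array signals of the IL-3 receptor subunits changed in opposite directions. Transcription was blocked, and the paper takes values above those at 0 h as measurement noise. The rise below is therefore given as a signal, and its cause was not tested. Il3ra, the alpha subunit that binds IL-3, was at 331 and 272 at 0 h and 544 and 388 at 2 h and stood at 153% ± 15.6 of its 0 h signal (log2 change 0.67, SE 0.15, adjusted p = 0.0067). Csf2rb, the beta subunit shared with the receptors for GM-CSF and IL-5, was at 569.8 and 765 at 0 h and 392 and 548 at 2 h and kept 70.2% ± 1.98 (log2 change -0.41, SE 0.16, adjusted p = 0.031). Csf2rb2, the mouse beta subunit specific for IL-3, was at 1012 and 1359 at 0 h and 698 and 868 at 2 h and kept 66.4% ± 3.62 (log2 change -0.50, SE 0.12, adjusted p = 0.0021). The 0 h and 2 h arrays did not overlap for Il3ra, and they did not for either beta subunit, although for Csf2rb the gap was small. Il3ra did not pass without the 2 h array of experiment 1 (adjusted p = 0.12) or on the poly-A control scale (0.089). Csf2rb did not pass on the 75th percentile scale (adjusted p = 0.17) or without the 0 h array of experiment 1 (0.21), the 2 h array of experiment 1 (0.051) or that of experiment 2 (0.17). Of 14 cytokine receptor genes 7 fell (50%, against 27.6% of all genes) and Il3ra alone rose. The IL-4 receptor gene Il4ra kept 23.5% ± 10.8 and the IL-17 receptor gene Il17ra 21.0% ± 3.45. The count of falls was 4 without the 2 h array of experiment 2.

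Of 13 measured cytokines and chemokines 5 fell (38.5%, against 27.6% of all genes) and 0 rose, and 4 fell and 4 rose with the arrays centred on the median. Vegfa kept 25.5% ± 3.66, by a probe set at 631 and 409 at 0 h and 177 and 93.8 at 2 h, while a dimmer one was at 77.1% and 91.6% and was not called. Il6, a cytokine with AREs in its mRNA, was at 787 and 994 at 0 h and 400.0 and 493 at 2 h and kept 50.2% ± 0.860 (log2 change -0.89, SE 0.14, adjusted p = 8.0e-05). The lymphotoxin gene Ltb kept 60.9% ± 0.954 and the macrophage growth factor Csf1 50.2% ± 0.153. The EGF-family growth factor Hbegf kept 74.0% ± 22.4 by its brighter probe set, which was at 935 and 1158 at 0 h and 839.7 and 674 at 2 h, with most of the loss in experiment 2 (log2 change -0.38, SE 0.15, adjusted p = 0.037). Without the 2 h array of experiment 2 it did not pass (adjusted p = 0.29).

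Of 24 measured apoptosis genes 12 fell, 0 rose and 12 were not called, where 27.6% of all genes fell. Bbc3, which encodes the p53-induced BH3 protein PUMA, was at 169 and 269 at 0 h and 49.2 and 54.9 at 2 h and kept 24.7% ± 6.18. Bcl2l11, which encodes BIM, was at 164 and 106 at 0 h and 92.2 and 79.7 at 2 h and kept 65.5% ± 13.2 (log2 change -0.46, SE 0.17, adjusted p = 0.029), and it missed the threshold without the 0 h or the 2 h array of experiment 1 (adjusted p = 0.2 and 0.23), on the 75th percentile, quantile and median centred scales (0.16, 0.23 and 0.19), with no filter (0.075) and with only the arrays compared (0.07). On the 75th percentile scale 7 apoptosis genes fell and 4 rose. Of 18 p53 targets 10 fell, with a median log2 change of -0.62. Sesn2, a stress-induced inhibitor of mTORC1, was at 924 and 738 at 0 h and 104 and 68.6 at 2 h and kept 10.3% ± 1.42, and a brighter probe set kept 36.6% ± 3.82. Of 20 genes of the ATF4 stress response 13 fell, with Ddit4, another mTORC1 inhibitor, at 18.2% ± 3.33 and Ddit3, the factor CHOP, at 23.3% ± 4.81. Ddit4 counts in the p53 list as well. On the 75th percentile scale 9 p53 targets fell and 3 rose, and 10 ATF4 genes fell and 5 rose. All 4 measured CDK inhibitors fell. Cdkn1b (p27) was at 594 and 257 at 0 h and 105 and 61.3 at 2 h and kept 20.8% ± 4.42, Cdkn2d (p19) kept 32.3% ± 4.52 and Cdkn2c (p18) 74.4% ± 13.6. Cdkn1a, which encodes p21, was at 2999 and 2661 at 0 h and 2164 and 1427 at 2 h by its brighter probe set and kept 62.9% ± 13.1 (log2 change -0.60, SE 0.14, adjusted p = 0.0014). Its dimmer probe set was at 106% and 48.9% in experiments 1 and 2 and was not called (adjusted p = 0.16). The 0 h and 2 h arrays overlapped for Cdkn2c, which was not called on the 75th percentile scale (adjusted p = 0.26) or without the 0 h or the 2 h array of experiment 2 (0.2 and 0.16).

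Of 39 measured G2/M genes 24 fell (61.5%, against 27.6% of all genes) and 0 rose, with a median log2 change of -0.43. Ccnf, an F-box cyclin, was at 685 and 449 at 0 h and 88.7 and 39.1 at 2 h and kept 10.8% ± 3.01. The mitotic kinase genes Plk1 and Aurka kept 25.6% ± 6.60 and 26.9% ± 6.46. Cks2, a CDK subunit, was much brighter at 4029.6 and 3783 at 0 h and 2669 and 2174 at 2 h and kept 61.8% ± 6.20, and Ccna2, which encodes cyclin A2, was at 2448 and 2081 at 0 h and 1691 and 1210.5 at 2 h and kept 63.6% ± 7.72. Of 38 G1/S and replication genes 17 fell (44.7%) and 0 rose, with a median of -0.27. The licensing factor Cdt1 was at 2467 and 1565 at 0 h and 583 and 244 at 2 h and kept 19.6% ± 5.70, its loading partner Cdc6 kept 29.4% ± 4.83, and Slbp, which binds histone mRNA, 36.1% ± 2.76. The G1/S count was 9 without the 0 h array of experiment 1 and 11 without the 2 h array of experiment 2. On the 75th percentile scale 15 G2/M genes fell and 4 rose, and 9 G1/S genes fell and 7 rose, with a G1/S median of -0.02.

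Of 43 measured mRNA decay genes 17 fell (39.5%, against 27.6% of all genes) and 2 rose, and on the 75th percentile scale 13 fell and 12 rose. The median log2 change was -0.17, against -0.12 over all genes, and turned to 0.09 on the 75th percentile and median centred scales and to 0.02 with quantile normalization. Tob2, an adaptor of CCR4-NOT, was at 713 and 589 at 0 h and 143 and 105 at 2 h and kept 18.9% ± 1.55 by its brightest probe set. Another Tob2 probe set fell to 19.4% and 20.1%, while dimmer ones, at 75.6% and 64.9% and at 64.5% and 132%, were not called. The related Btg1 kept 18.9% ± 9.63, the CCR4-NOT ubiquitin ligase Cnot4 19.9% ± 0.311, and the decapping cofactor Dcp1a 28.5% ± 8.98. Ddx6, a helicase of decapping, rose by its brightest probe set (148% ± 35.3, log2 change 0.62, SE 0.12, adjusted p = 0.0027), while a dimmer one fell to 89.3% and 57.5%. Upf1, the helicase of nonsense-mediated decay, was dim at 16.7 and 40.7 at 0 h and 42.9 and 106 at 2 h (log2 change 1.06, SE 0.21, adjusted p = 0.0026). The Ddx6 rise did not pass on the poly-A control scale (adjusted p = 0.13 by limma). On the deposited scale it went from 0.54 to 0.32 without the 2 h array of experiment 1. That of Upf1 went from 0.98 to 0.72 without the 0 h array of experiment 2.

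Of 19 measured ARE-binding proteins 8 fell (42.1%, against 27.6% of all genes) and 0 rose. Zfp36l2, a protein that binds AREs and recruits deadenylases, was bright at 3455 and 2939.6 at 0 h and 1588 and 783 at 2 h and kept 36.3% ± 13.7 (log2 change -1.42, SE 0.18, adjusted p = 1.0e-05). The founding member Zfp36 was at 118 and 173 at 0 h and 67.5 and 35.8 at 2 h and kept 39.0% ± 25.8. Zfp36l1 was at 996 and 971 at 0 h and 809 and 562 at 2 h and kept 69.5% ± 16.5 (log2 change -0.45, SE 0.15, adjusted p = 0.016) and did not pass without the 2 h array of experiment 2 (adjusted p = 0.28), and its dim probe set was not called. Zfp36 did not pass without the 0 h array of experiment 2 (adjusted p = 0.077). Tial1, an ARE-binding protein of stress granules, kept 72.5% ± 0.496. Its other probe sets, at 74.0% and 89.9% and at 74.2% and 81.3%, were not called. In rising order of the share left, Zfp36l2, Zfp36, Zfp36l1 and Tial1, the ranges of mean ± SD of neighbours overlapped. The count of 8 became 3 without the 0 h array of experiment 2, 5 without the 2 h array of experiment 2 and 2 on the 75th percentile scale, where the median log2 change of the list turned from -0.13 to 0.13, as it did with median centring.

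Of 75 measured C2H2 zinc finger genes 52 fell and 0 rose (69.3% against 27.6% of all genes), with a median log2 change of -0.76. Zfp281, a pluripotency factor, was at 523 and 310.0 at 0 h and 70.6 and 31.4 at 2 h and kept 11.8% ± 2.39, Zfp830 kept 18.6% ± 0.441, Zfp871 18.8% ± 3.97 and Zfp52 24.8% ± 0.826. In the other settings the count lay between 39 and 67, except for 15 of the 23 genes tested at a mean intensity of at least 200, and 9 without the experiment as a block. Of 50 Mediator and TFIID subunits 18 fell and 1 rose, and the median of -0.16 turned to 0.09, 0.06 and 0.10 on the 75th percentile, quantile and median centred scales. Med26, the subunit that recruits elongation factors, was at 309 and 152 at 0 h and 12.6 and 13.2 at 2 h and kept 6.38% ± 3.26, and Med7 kept 23.2% ± 3.66. Med26, with a mean of 55.8, was tested only through its 0 h arrays, and its share left is uncertain. Tbp, the TATA-binding protein, often used as a control gene, was at 330.2 and 259 at 0 h and 133 and 112 at 2 h and kept 41.7% ± 2.14. Of 57 chromatin regulators 21 fell (36.8%, against 27.6% of all genes). On the 75th percentile scale 14 fell and 6 rose, and on the poly-A control scale 41 fell. The acetyl-lysine reader Brd2 kept 37.8% ± 9.56 and the H3K4 demethylase Kdm5b 30.8% ± 10.7. A dim Kdm5b probe set, at 69.0% and 125%, was not called. Of 63 ribosome biogenesis genes 26 fell and 1 rose, with the nucleolar proteins Gnl3 and Wdr43 at 28.5% ± 10.9 and 30.9% ± 5.70. On the 75th percentile scale 15 of these fell and 11 rose.

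The remaining lists were mixed. Where 27.6% of all genes fell, falls and rises were 14 and 0 of 27 F-box genes, 10 and 0 of 29 ubiquitin-specific proteases, 4 and 0 of 24 ubiquitin-conjugating enzymes, 26 and 1 of 83 splicing genes, and 11 and 3 of 42 translation initiation genes. They were 14 and 1 of 44 heat shock and chaperone genes, 6 and 0 of 19 cholesterol genes, 4 and 0 of 7 circadian genes, 4 and 1 of 18 genes of glycolysis and other controls, and 1 and 0 of 7 histone genes. On the 75th percentile scale several turned, to 13 falls and 19 rises for splicing, 4 and 15 for translation initiation, 4 and 13 for heat shock, 4 and 5 for the proteases, 2 and 4 for the conjugating enzymes, 3 and 4 for cholesterol, 2 and 9 for glycolysis and 1 and 3 for histones. Without 1 array the heat shock count was 7 or 8, the circadian count 1 (either array of experiment 1), the protease count 6 (either array of experiment 2) and the glycolysis count 2 (the 2 h array of experiment 2). Genes too dim to test are not in any of these counts, so that 14 of the 27 immediate early genes, 13 of the 33 cytokine genes and 75 of the 157 C2H2 genes on the array were measured.

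**Figure D3:**
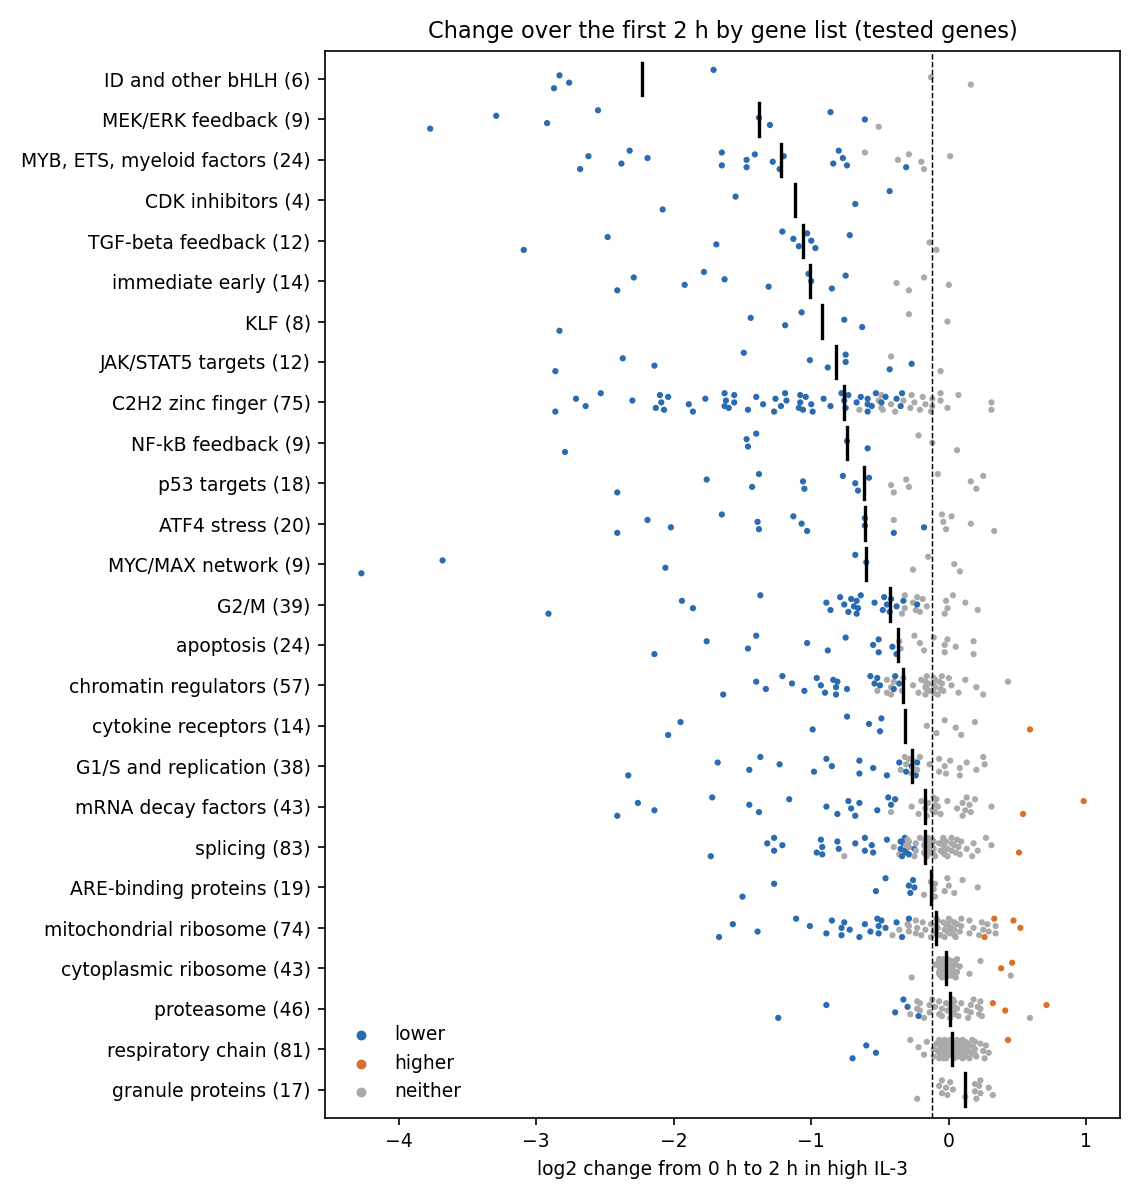
Log2 change from 0 h to 2 h in high IL-3 (horizontal axis) of each tested gene of 26 lists, by its brightest probe set. The number tested is in parentheses, blue points fell, orange points rose, grey points were not called, black bars are list medians, and the dashed line is the median over all genes (-0.12). Lists of transcription and signalling regulators have medians down to -2.23, and ribosomal, proteasome, respiratory chain and granule genes cluster near 0.

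Genes of the cytoplasmic ribosome, the respiratory chain, the proteasome and the granules were called less often than all genes, and those of the mitochondrial ribosome were not. Of 43 cytoplasmic ribosomal protein genes 0 fell and 2 rose, Rpl14 with 140.2% ± 25.3 and Rps6 with 131% ± 1.90, and the median log2 change was -0.02. Rpl14 did not pass without the 0 h or the 2 h array of experiment 2 (adjusted p = 0.16 and 0.07), and Rps6 did not without the 0 h array of experiment 2 or the 2 h array of experiment 1 (0.18 and 0.22). Of 81 respiratory chain genes 3 fell and 1 rose. The falls were all in assembly factors and not in subunits, with Ndufaf4 at 60.8% ± 7.79. Of 46 proteasome genes 6 fell and 3 rose. The assembly chaperone Psmg3 was at 469 and 537 at 0 h and 189 and 219 at 2 h and kept 40.6% ± 0.372, and Psmd9, another chaperone, stood at 169% ± 25.3. Without either array of experiment 2, 3 proteasome genes fell. Of 17 granule genes none was called, and of 21 aminoacyl-tRNA synthetase genes 3 fell and 2 rose, with Iars at 75% ± 2.51 and Kars at 141% ± 32.6. Kars did not pass without the 0 h or the 2 h array of experiment 1 (adjusted p = 0.069 and 0.19). Of 74 mitochondrial ribosomal protein genes 22 were lower (29.7%, near the 27.6% of all genes) and 4 higher, with Mrpl44 at 30.1% ± 3.87, and on the 75th percentile scale 14 were lower and 27 higher. Gapdh was at 7364 and 8281 at 0 h and 7727 and 7653 at 2 h and kept 98.7% ± 8.85, while Hk2, the hexokinase that growth factors induce, was at 1333 and 795 at 0 h and 668 and 374 at 2 h and kept 48.6% ± 2.16. The sterol genes Sqle and Hmgcs1 kept 42.2% ± 7.12 and 54.6% ± 3.58. The low number of calls in the cytoplasmic ribosome and the respiratory chain holds for the deposited scale. On the 75th percentile scale 30 cytoplasmic ribosomal and 60 respiratory chain genes rose, and on the poly-A control scale 19 and 22 fell.

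The 413 rises were smaller than the falls, with a median log2 change of 0.52 on the deposited scale, and rested more on single arrays. After the transcription block the paper takes values above 0 h as measurement noise, and the cause of these rises was not tested. Without the 2 h array of experiment 1, 72 probe sets were higher, without that of experiment 2, 735, and without the 0 h array of experiment 2, 176. The clearest was Wdfy2, an endosomal protein that binds AKT, at 138 and 82.6 at 0 h and 324 and 257 at 2 h and 273% ± 53.9 of its 0 h signal (log2 change 1.39, SE 0.19, adjusted p = 6.8e-05), and its only probe set passed on every scale and with each array left out, but not without the experiment as a block (adjusted p = 0.072). The largest rise by size was that of a probe set of Zap70, a T cell kinase, at 25.5 and 24.4 at 0 h and 27.0 and 334 at 2 h. Here a single array, at 2 h in experiment 2, was high, and the brighter probe set of the gene was not called. Canx, an endoplasmic reticulum chaperone, rose by a dimmer probe set from 183 and 781 to 766 and 854, with most of the rise in experiment 1, and was not called without the 2 h array of that experiment (adjusted p = 0.61). The groups overlapped, since the 0 h array of experiment 2 was brighter than the 2 h array of experiment 1. Its bright probe set was at 198% and 115%. Ociad1 rose by a dim probe set (97.2 and 3.21 at 0 h and 121 and 57.9 at 2 h) while its bright one kept 92.0% and 100%. Pmf1, Kcnab2, Gmfb, Cd99 and Slc39a1, at 222% ± 38.5, 221% ± 66.1, 224% ± 121, 224% ± 86.9 and 213% ± 12.3, completed the 10 largest with Upf1. The brightest probe sets of Pmf1, Kcnab2 and Gmfb were not called. Another Gmfb probe set, brighter than the one given, was called higher at 167% and 159%. Of the 192 genes with several probe sets and a rise in any of them, 24 rose by all.

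Few probe sets passed the test between the doses of IL-3 at 2 h. High and low IL-3 differed for 7 probe sets (0.0590% of those tested), all higher in high IL-3, and 0 were lower (0%). At an unadjusted p under 0.05 there were 868, of which 346 were lower. Il6 at 2 h was at 400.0 and 493 in high and 127 and 169 in low IL-3, which is 50.2% ± 0.860 and 16.5% ± 0.638 of 0 h (log2 difference high minus low 1.50, SE 0.14, adjusted p = 1.8e-04). Zfp36l2 was at 1588 and 783 in high and 459 and 435 in low IL-3, or 36.3% ± 13.7 and 14% ± 1.07, a difference of 1.29 (SE 0.18, adjusted p = 0.0077). Both Hbegf probe sets differed, by 1.34 (SE 0.15, adjusted p = 0.0015) and 1.45 (SE 0.20, adjusted p = 0.0077), and the brighter was at 839.7 and 674 in high and 309 and 269 in low IL-3. In each of these 3 genes both high IL-3 arrays lay above both low IL-3 arrays. The brightest Pik3cd probe set differed by 0.94 (SE 0.14, adjusted p = 0.014), 4921524J17Rik by 1.16 (SE 0.20, adjusted p = 0.042), and a dim probe set of Xiap, a caspase inhibitor, by 1.12 (SE 0.19, adjusted p = 0.042), while the brightest Xiap probe set was among those lower at 2 h in high IL-3, at 61.8% and 78.9%.

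**Figure D4:**
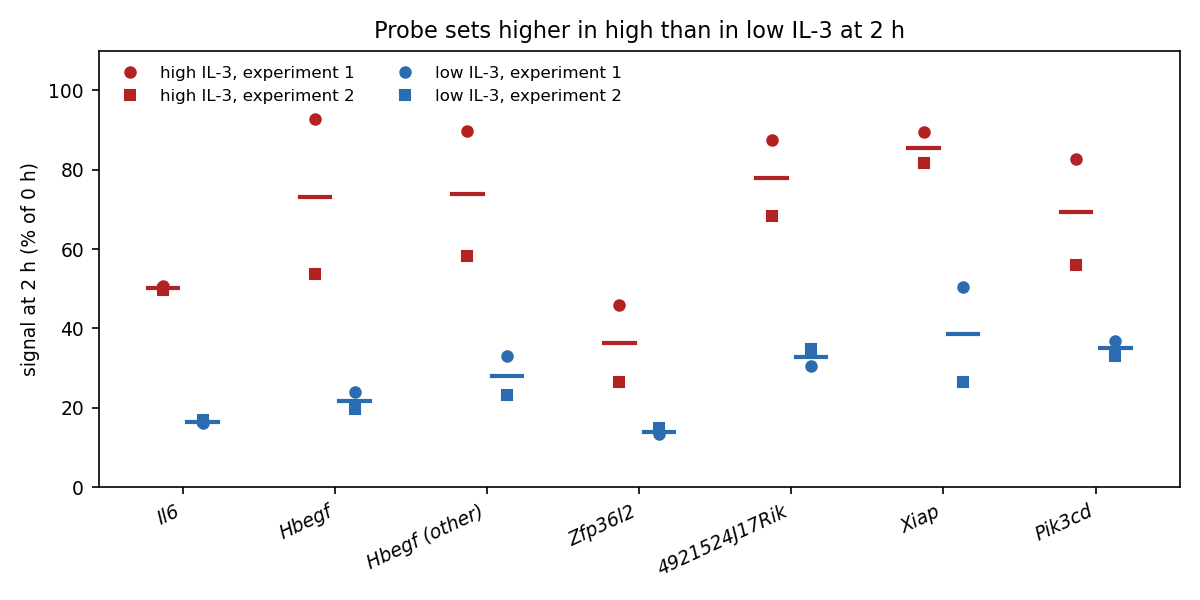
The vertical axis gives the signal at 2 h as a percentage of the 0 h signal within each experiment, in red for the high and in blue for the low dose of IL-3, for the 7 probe sets that differed between the doses. Circles are experiment 1, squares experiment 2 and short bars the mean, and every red point lies above the blue points of the same probe set.

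The genes with the deepest losses were not among them. Myc stood at 4.03% ± 1.69 of its 0 h signal with the high and 3.79% ± 0.0746 with the low dose (log2 difference 0.04, SE 0.19, adjusted p = 0.98), Dusp6 8.64% ± 1.41 and 7.01% ± 1.39, Cish 19.2% ± 4.48 and 18.4% ± 6.11, and Mcl1 23.0% ± 7.72 and 21.3% ± 7.14. Both doses share the 0 h arrays as their base. A p above the threshold does not show that the values were the same. The count of 7 changed with the 2 h array of experiment 2 in high IL-3, without which 222 probe sets were higher and 11 lower, and without the array of experiment 1, 9 were higher and 14 lower. It was 0 when only the arrays of the 2 groups were fitted.

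The change over the next 2 h was set against that over the first. Over all probe sets tested the median log2 change was -0.08 in the first 2 h and -0.05 in the second. The 2685 lower probe sets, chosen for their fall in the first interval, had medians of -0.75 and -0.44, which the choice itself favours. The change over the second interval differed from that over the first for 309 probe sets with a slower loss (2.61%) and 60 with a faster one (0.506%). A faster loss here means a more negative later change, also where the signal at 2 h lay above that at 0 h. The 2 h arrays enter both intervals with opposite sign, so that an error in them moves both. Of the 309, 306 were lower at 2 h, which the shared arrays largely build in, and 124 had intensities below 100 at 2 h on both arrays. Myc went from 76.5 and 30.2 at 2 h to 54.3 and 38.4 at 4 h, Mycn from 114 and 154 to 163 and 137, Id1 from 117 and 191 to 107 and 174, and the Nfkbia probe set with the deepest fall from 26.5 and 20.5 to 32.3 and 31.8. Both arrays were higher at 4 h than at 2 h for Nfkbia and lower for Id1, and for Myc and Mycn 1 array was higher and the other lower. The differences between the intervals, relative to the median of 0.03, were 4.16, 3.80, 2.62 and 4.26 log2 units, with adjusted p of 7.6e-06 for all but Id1 (4.3e-05). The 4.26 of the Nfkbia probe set started from signals below 50 on both 2 h arrays, and a brighter probe set of the gene, at 264 and 219 at 2 h, had a difference of 2.95. Trim13, a ubiquitin ligase of the endoplasmic reticulum, and Zfp281 had differences of 2.74 and 2.83.

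A smaller set had a more negative change over the second 2 h than over the first. Of these 60 probe sets, 7 were lower at 2 h, 18 were higher and 35 were not called. For the 18, the difference includes a rise above 0 h, which the paper takes as measurement noise. Both Cks2 probe sets belonged to the 60. The brighter one was at 2669 and 2174 at 2 h and 856 and 725 at 4 h, so that 61.8% was left at 2 h and 20.2% at 4 h (difference -0.93, SE 0.15, adjusted p = 0.003). Ccna2 kept 63.6% at 2 h and 20.1% at 4 h (difference -1.01, SE 0.19, adjusted p = 0.0078). Denr, a factor of translation reinitiation, was at 914 and 1042 at 0 h and 1206 and 1168 at 2 h and then at 467 and 471 at 4 h (difference -1.62, SE 0.20, adjusted p = 3.9e-04). Rsrp1, a serine and arginine-rich protein gene, stood at 188% ± 47.5 of its 0 h signal at 2 h and at 107% at 4 h by the same probe set, while its brightest probe set was not called and a dim one fell to 22.3% and 43.0%. Tbrg1, Bola1 and Slc6a13 were at 123% ± 17.1, 97.2% ± 5.90 and 128% ± 2.66 at 2 h and at 59.5%, 35.1% and 66.1% at 4 h. The count of 60 was 468 without the 2 h array of experiment 2 and 11 without that of experiment 1, and the count of 309 was 149 without the latter.

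**Figure D5:**
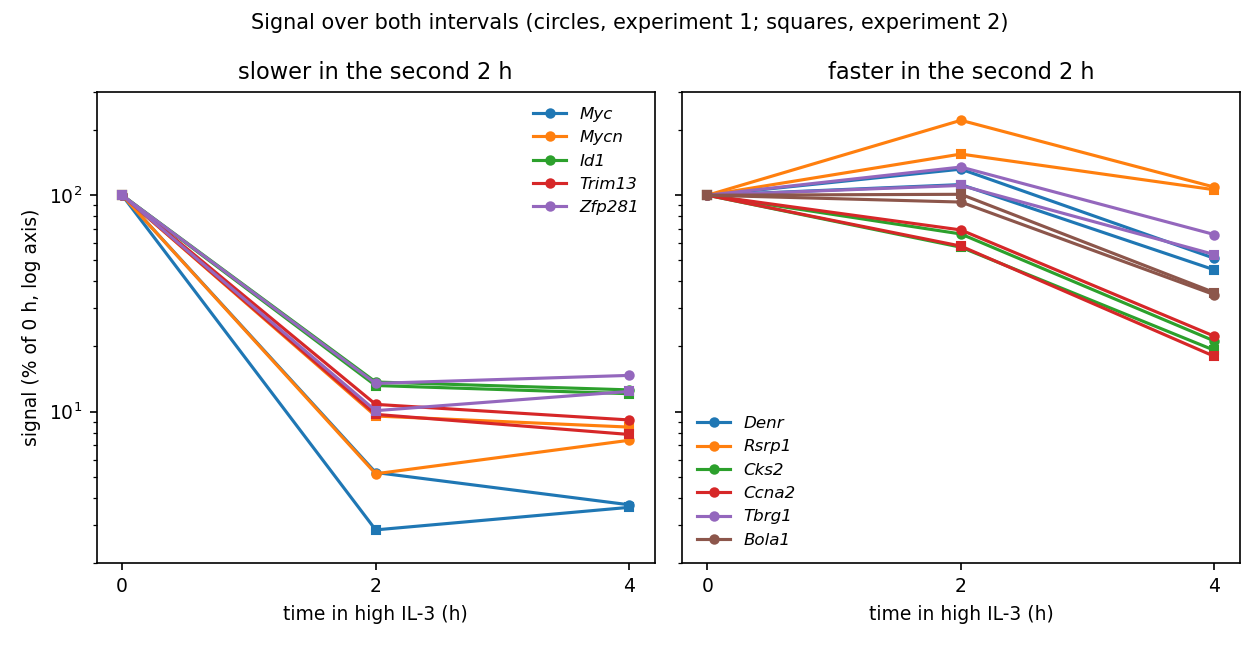
Percentage of the 0 h signal within each experiment (log scale) against hours in high IL-3 for genes with a slower (left) and a faster loss (right) in the second interval, with circles for experiment 1 and squares for experiment 2. On the left the curves drop to between 2.84% and 13.7% by 2 h and then level, and on the right they are at 57.5% or above at 2 h and drop afterwards.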

How the data were processed

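Values for 10 arrays of 32Dcl3 cells, 2 in each of 5 groups of time and IL-3 dose, were taken from the series' value table. They are linear intensities, deposited by the authors after joint normalization and modelling of all 10 arrays in dChip, of a version not given in the sources used here. Array intensities had no log transformation, and the number of arrays limits their precision. Gene names came from the platform's annotation (20393 probe sets with 1 gene symbol, 691 with several, 1606 with none), and none with several was named.

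Log2(intensity + 16) was fitted with limma 3.58.1 in R 4.3.3 for 11856 probe sets (mean of 50 or more), with terms for the 5 groups, a block for each experiment and a variance trend. P-values were adjusted by Benjamini-Hochberg over all of them at 0.05. All 10 arrays entered the fit, so the groups share 1 estimate of the spread. The block follows from the design (1 divided culture for each experiment), and arrays of the same experiment deviated together (correlations of 0.762 to 0.887 over 10 pairs of groups). The block takes out the difference in level between the 2 cultures. P-values therefore rest on how far the changes between groups differed from 1 divided culture to the other, pooled over the 5 groups. The fit was also run on values simulated from its own model, with independent normal noise and an additive block. Such values cannot test the choice of scale or errors of single arrays, and nothing here rests on them. Lists are given by counts and medians only, and a gene counts by its brightest probe set. The lists share members, such as Ddit4, Mcl1, Cebpb, Birc2, Birc3 and Bhlhe40, so that their counts are not independent.

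Genes were named where their probe set was among the 15 largest falls or 10 largest rises in the same direction in both experiments, among up to 4 members of a list with the smallest p in each direction, among up to 8 with the smallest p between doses or between intervals, or followed by the study, with the IL-3 receptor genes and Bcl2l11 added. Members and lists were chosen with earlier results of these data known. Alternatives were another pseudocount, filter, scaling, variance model or set of arrays, no block, and each array left out.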

Additional observations from a re-analysis of the deposited data

Results flagged for a closer look

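High and low IL-3 at 2 h differed by the test of the difference itself for 7 probe sets, all higher in high IL-3. The log2 differences were 1.50 for Il6, 1.45 and 1.34 for the dimmer and the brighter probe set of Hbegf, 1.29 for Zfp36l2, 1.16 for 4921524J17Rik, 1.12 for a dim probe set of Xiap and 0.94 for Pik3cd.

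The change over the second 2 h in high IL-3 differed from that over the first by the same kind of test for the probe sets below, with differences in log2 units relative to the median of 0.03. Slower later loss was measured for Nfkbia (4.26 and 2.95 by 2 probe sets), Myc (4.16), Mycn (3.80), Socs3 (3.31), Zfp281 (2.83), Trim13 (2.74) and Id1 (2.62). A more negative later change was measured for Rsrp1 (-1.67), Denr (-1.62), Bola1 (-1.35), Tbrg1 (-1.33), Slc6a13 (-1.32), Ccna2 (-1.01) and Cks2 (-0.93 and -0.87 by 2 probe sets). Rsrp1, Denr, Tbrg1 and Slc6a13 stood above their 0 h signal at 2 h in both experiments, so that their differences include a rise. The intervals share the 2 h arrays.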

How the results depend on the processing

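Of 142 log2 changes from 0 h to 2 h followed for named genes, 83 lost their call in some alternative, 57 of them only without the experiment as a block, and none changed direction after being called. Without the replicate block limma called 192 probe sets lower and 0 higher (1565 in either direction at an unadjusted p under 0.05), 0 between doses (88 unadjusted), and 1 slower and 0 faster later losses (318 unadjusted).

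Against 2685 lower, 413 higher and a median log2 change of -0.08, the 75th percentile scaling gave 1642, 3582 and 0.17, quantile normalization 1755, 2478 and 0.09, median centring 1645, 3795 and 0.18, and poly-A control scaling, chosen after seeing the data, 5717, 79 and -0.35. A minimum mean of 200 left 1658 lower, no filter 224 higher, and fitting only the arrays compared 213 higher. Leaving out 1 array gave 1910 to 2211 lower, 72 to 735 higher and medians from -0.14 to -0.04.

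Against 7 higher and 0 lower in high IL-3, there were 2 higher with no filter, the 75th percentile or quantile normalization, 16 higher and 2 lower with Gapdh scaling, 1 without the variance trend and 0 with only the groups compared. Leaving out 1 array gave 5 to 222 higher and 0 to 14 lower. Against 309 slower and 60 faster later losses, no filter gave 144 and 20, a minimum mean of 200 gave 92 and 29, and only the groups compared 205 and 14. Slower losses were 196 at the 75th percentile and 168 with quantile normalization, and faster ones 106 with median centring and 19 without the variance trend. Leaving out 1 array gave 149 to 334 slower and 11 to 468 faster. The cause of these shifts was not tested. With 2 arrays a group, small changes and probe sets near background have little precision.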
